A study of Mus musculus with 35 samples.

Results

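The cytochrome P450 genes of the kidney were followed through diabetes in 35 Affymetrix arrays of whole mouse kidney. A gene was taken as a member when its symbol on the platform was Cyp followed by a digit, with Cyp27b1, Cyp24a1 and Cyp51 left out, and its brightest probe set stood for it. The rule found 70 of the 18193 genes on the platform, in 32 subfamilies, and 37 of the 70 were bright enough to be tested among 13004 genes. The mice were FVB/NJ, and the diabetic animals belonged to the OVE26 line, in which a calmodulin transgene driven by an insulin promoter damages the pancreatic beta cells. The groups were diabetic and control kidneys, 6 and 6 at 2 months of age, 7 and 4 at 4 months, and 6 and 6 at 8 months. The labels give no further allele or treatment for either group, and they do not say whether a sample was 1 animal or a pool. P-values therefore measure the spread between these samples.

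Cytochromes P450 are heme enzymes that add oxygen to their substrates with electrons passed on from NADPH by a reductase. In the kidney they lie mostly in the proximal tubule, where enzymes of the Cyp4 family hydroxylate the ends of fatty acids and of arachidonic acid, enzymes of the Cyp2c and Cyp2j families make epoxides of arachidonic acid, and others handle sterols, retinoids, steroids and foreign compounds. The lipid products act on vessel tone and on salt transport.

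The family did not move as a block. At 8 months 9 of the 37 tested genes were higher in diabetic kidneys and 6 were lower, and the median difference over the 37 was -0.06 on the log2 scale, against 0 over all genes tested. The 15 called genes are 40.5% of those tested, where 16.8% of all genes were called, 9.87% higher and 6.95% lower. At 2 months 0 members rose and 2 fell (2.54% of all genes were called, 0.754% higher and 1.78% lower), with a median of -0.03 against -0.01. At 4 months 1 rose and 0 fell (0.969% of all genes called), with a median of 0.06 against 0.01. A gene is called here when its limma p, adjusted over the 13004 genes, is under 0.05. By unadjusted p, 5 members (13.5%) in the 2-month comparison, 11 (29.7%) in the 4-month one and 18 (48.6%) in the 8-month one were under 0.05, where 15.2%, 11.4% and 28.6% of all genes were.

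**Figure D1:**
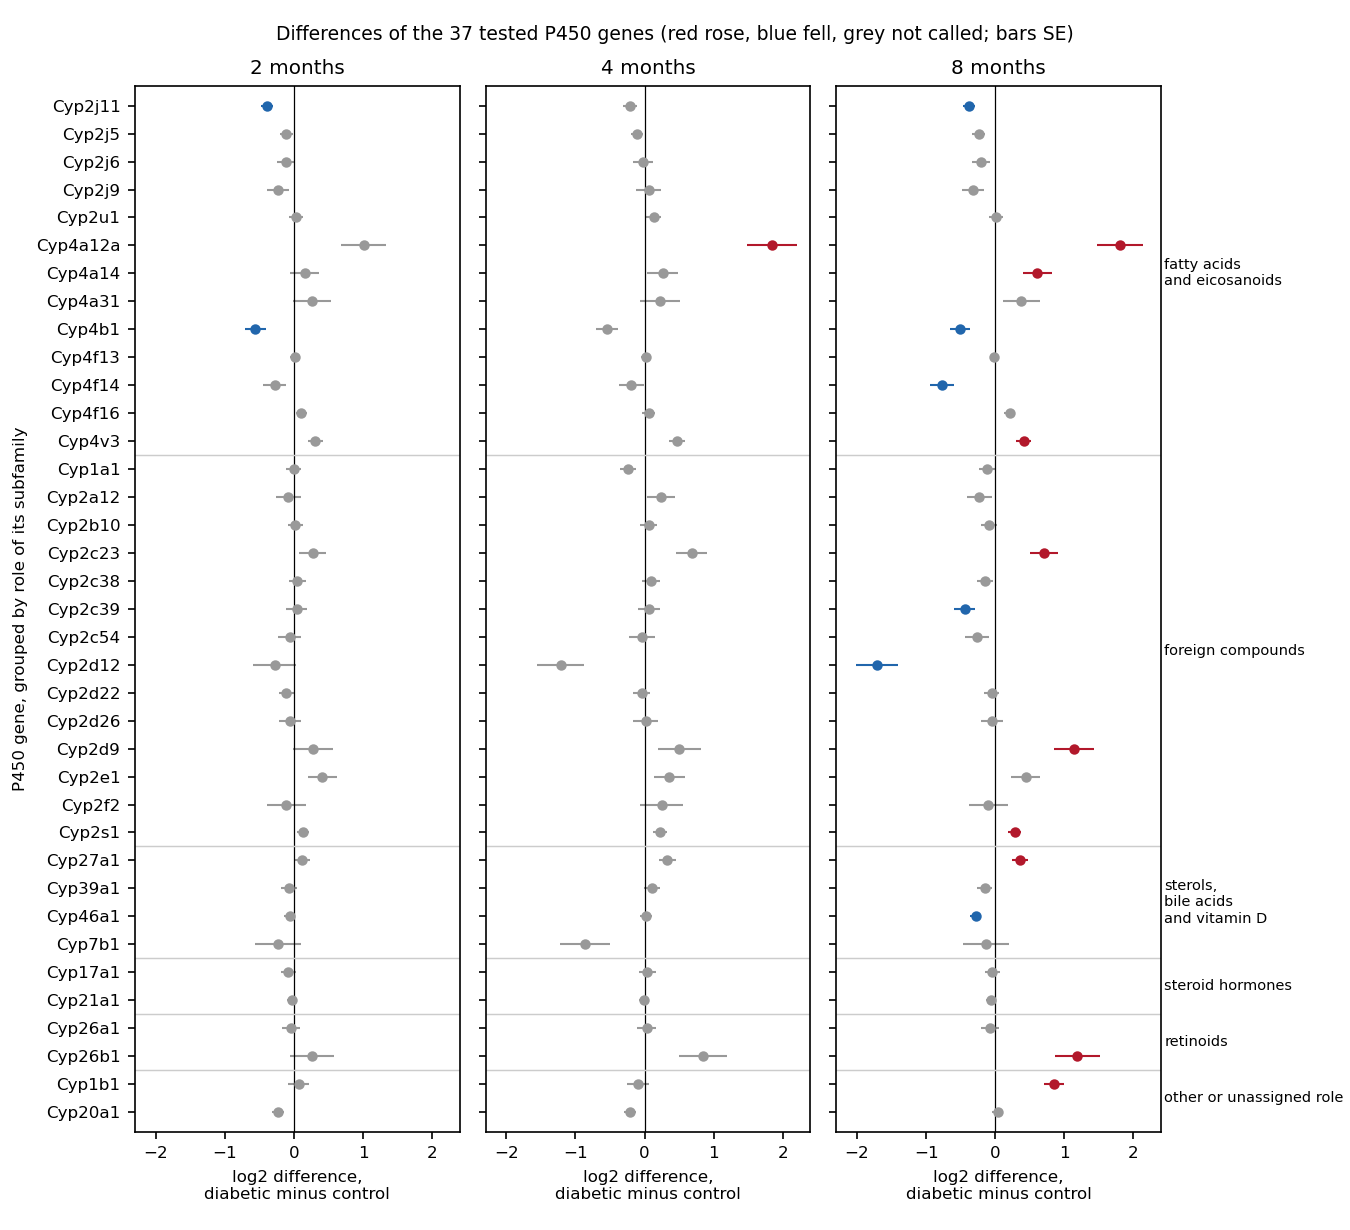
Log2 difference between diabetic and control kidneys (diabetic minus control, bars are standard errors of the limma fit) for each of the 37 tested P450 genes at 2, 4 and 8 months, grouped by the role of the subfamily. Called genes are coloured and number 2, 1 and 15 from the youngest to the oldest age; they spread to both sides of 0, from -1.71 for Cyp2d12 to 1.81 for Cyp4a12a at 8 months.

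Several arrays stood apart. Control array 4 of 8 months held liver transcripts. Alb stood at 12.34 there, against 7.12 to 8.19 on the other 5 controls and 6.01 to 7.13 on the diabetic arrays. Ahsg, Apoa1 and Ttr were highest there as well. Among the other hepatocyte markers, Apob stood at 9.03, within the 8.37 to 9.28 of the other controls. Fga, at 10.06, lay above the other controls (9.2 to 9.63) but not above the diabetic arrays (10.06 to 11.77). At 4 months control arrays 3 and 4 stood apart along the first principal component (29.4% of the variance), and Dbp, a gene of the circadian clock, spanned 8.02 to 10.63 over the 4 controls against 10.24 to 11.29 over the diabetic arrays. Dbp was as widely spread at the other ages, at 7.95 to 11.11 in the 2-month and 7.32 to 10.64 in the 8-month diabetic kidneys, and diabetic array 5 of 8 months was the lowest. At 2 months control array 6 had a 3'/5' log2 ratio of beta-actin of 2.56, while the other controls and the diabetic arrays lay between 0.81 and 1.35. Arrays 5 and 6 of both 2-month groups lay at 9.3 to 36.6 on the first component of that age (42.8% of the variance) and the others at or below -7.2. At 8 months diabetic array 3 was farthest out (-39, with 48.4% of the variance). Without control arrays 3 and 4 of 4 months 11 of the 37 members changed sign, without control array 6 of 2 months 8 did, and without control array 4 of 8 months 2 did, none of them called with or without those arrays. Xist was at 10.11 or above on every array and the highest Y-linked level was 4.92, and all 20 proximal tubule markers were above the brightness limit.

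Among the fatty acid and eicosanoid enzymes, 13 of 19 members were tested, and at 8 months 3 rose and 3 fell. Over all genes 9.87% were called higher and 6.95% lower at that age. Members were grouped by subfamily, and the Cyp2c genes were counted with the enzymes for foreign compounds. Cyp4a12a, an omega-hydroxylase of arachidonic acid, changed most. At 8 months its log2 signal ran from 7.60 over a median of 8.02 to 8.26 in the controls and from 9.36 over 9.51 to 10.46 in the diabetic kidneys. The groups did not overlap, and the lowest diabetic array lay more than 1 log2 unit above the highest control. The difference was 1.81 ± 0.33 (SE, adjusted p = 0.000151, limma), or 3.51-fold. It was 1.83 without control array 4.

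Cyp4a12a was already apart at 4 months, when the 4 controls stood at 8.51, 8.19, 7.10 and 7.31 and the 7 diabetic arrays ran from 8.98 over 9.77 to 10.44. The groups again did not overlap, and the 2 lower controls were arrays 3 and 4. The difference was 1.85 ± 0.36 (adjusted p = 0.00544, limma), 1.63 when control array 3 was left out (adjusted p = 0.0577), 1.70 when array 4 was (0.053) and 1.28 when both were (0.658, with 2 controls left). At 2 months the controls ran from 6.27 over 8.28 to 8.96 and the diabetic arrays from 8.64 over 8.78 to 10.10. Here 1 control, array 6, lay far below the rest, and the highest control lay inside the diabetic range. The difference of 1.01 ± 0.33 was not called (adjusted p = 0.0963, limma). Same-numbered arrays of this age deviated together, and a fit paired on the number as a replicate block called it (adjusted p = 0.0131), which raised the count of members called at 2 months from 2 to 3. Without control array 6 the unpaired difference was 0.67 (adjusted p = 0.207).

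The other Cyp4a genes moved less. Cyp4a14, a fatty acid hydroxylase known as a target of the receptor PPAR-alpha, ran from 11.62 over 11.80 to 12.17 in the 8-month controls and from 11.96 over 12.37 to 13.34 in the diabetic kidneys. These ranges overlapped. Its rise of 0.61 ± 0.21 (adjusted p = 0.043, limma) was lost without any 1 of 7 of the 12 arrays, diabetic 4, 5 or 6 or control 1, 2, 3 or 4, and fell to 0.43 (adjusted p = 0.159) without diabetic array 5, the highest. At 2 months its difference was 0.16, or 0.08 without control array 6, and at 4 months 0.26, or -0.09 without control arrays 3 and 4. Cyp4a31 was not called at any age, with 0.26, 0.22 and 0.38 at 2, 4 and 8 months. Its first value turned to -0.09 without control array 6 and its second to -0.06 without control arrays 3 and 4. A probe set shared by several Cyp4a genes, and so kept out of the members, rose by 0.49 ± 0.14 at 8 months (adjusted p = 0.0127, limma on all probe sets), where 6 of 6 diabetic arrays (13.63 to 14.12) lay above every control (13.10 to 13.44).

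Cyp4b1, which hydroxylates short fatty acids and activates some toxins, was the reverse of Cyp4a12a. In the 2-month controls it ran from 12.42 over 13.02 to 13.23 and in the diabetic kidneys from 11.89 over 12.37 to 12.71. The lowest control was array 6. The difference was -0.56 ± 0.15 (adjusted p = 0.0309, limma), and -0.67 (0.00595) without that array. The call at 2 months was lost, at differences from -0.55 to -0.46, without diabetic array 5 or 6 or control array 1, 2, 3 or 4 (adjusted p up to 0.0929) and when this age was fitted by itself (0.137).

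At 4 months the Cyp4b1 controls were 13.11, 12.68, 12.73 and 12.99 and the diabetic arrays ran from 11.95 over 12.28 to 12.72. Only the highest diabetic array exceeded the lowest control, and the difference of -0.54 ± 0.16 was not called (adjusted p = 0.104). At 8 months the controls lay within 12.50 to 12.66 and the diabetic kidneys ran from 11.72 over 12.06 to 12.71. In this set 5 of 6 diabetic arrays lay below every control, and array 5 lay above all of them. The difference was -0.51 ± 0.15 (adjusted p = 0.0141, limma), and -0.44 without diabetic array 3 (0.053). The 3 differences, 1.48-fold, 1.46-fold and 1.42-fold lower, lay within their errors of each other.

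**Figure D2:**
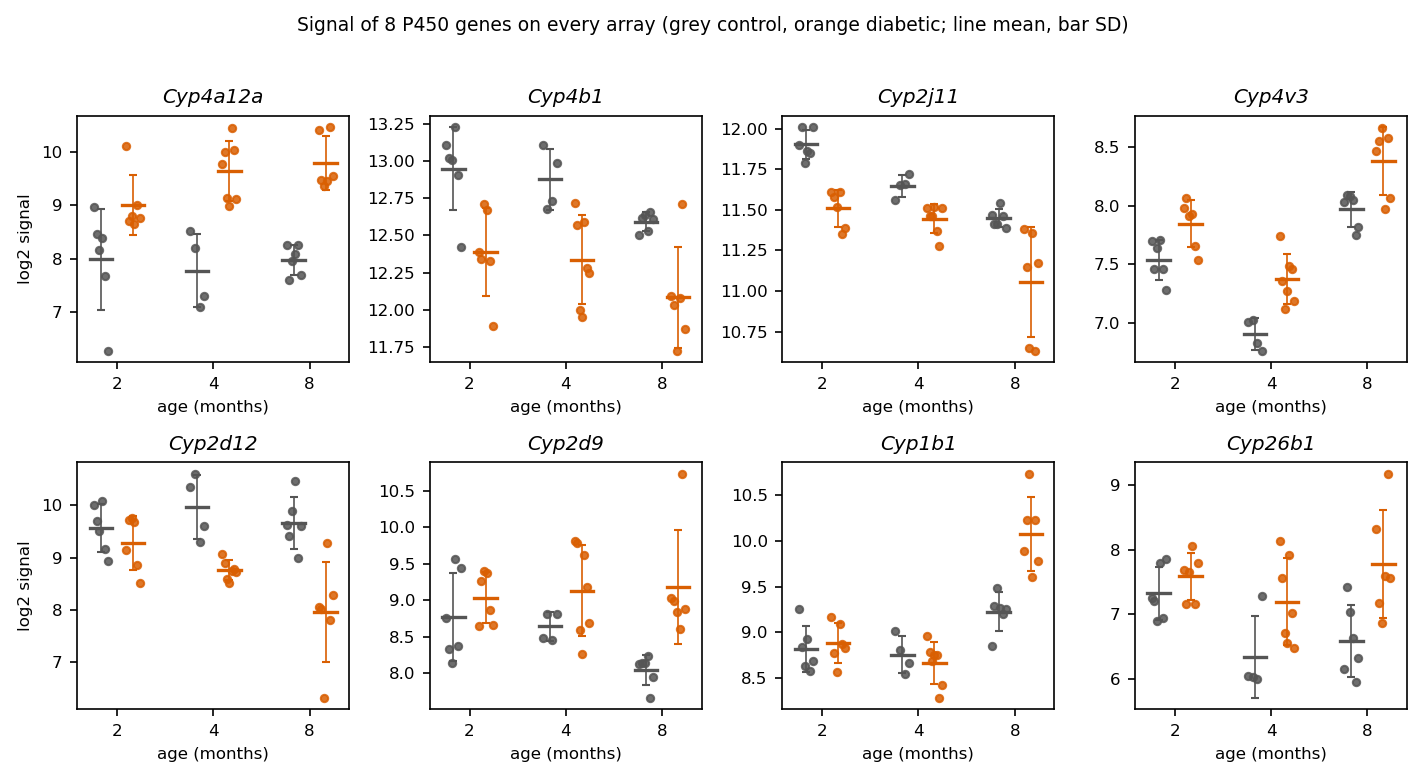
Log2 signal of 8 P450 genes on each of the 35 arrays by age in months, with grey points for control and orange points for diabetic kidneys; lines are group means and bars are SD. For Cyp4a12a every diabetic array at 4 and 8 months lies above every control, while Cyp2j11 shows the reverse at all 3 ages, and Cyp1b1 separates at 8 months but not earlier.

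Cyp2j11, a kidney member of the Cyp2j family of epoxygenases, was lower in diabetic kidneys at each age without overlap between the groups. Among all genes, 0.961%, 2.44% and 4.28% were lower without overlap at 2, 4 and 8 months. At 2 months the controls ran from 11.79 over 11.88 to 12.01 and the diabetic arrays from 11.35 over 11.55 to 11.61, a fall of -0.39 ± 0.09 (adjusted p = 0.0153, limma). Without arrays 5 and 6 of both groups it was -0.31 (adjusted p = 0.139). At 4 months the controls were 11.56, 11.65, 11.66 and 11.72 and the diabetic arrays ran from 11.28 over 11.46 to 11.52. That difference, -0.21 ± 0.10, was not called (adjusted p = 0.429). At 8 months the controls lay within 11.39 to 11.54 and the diabetic arrays ran from 10.63 over 11.16 to 11.38, with diabetic arrays 3 and 5 lowest. The fall was -0.38 ± 0.09 (adjusted p = 0.00302, limma), 1.31-fold.

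Cyp2j11 and Cyp4b1 are the members that fell at both 2 and 8 months. Their promoters, the 250 bases before the start of the gene on the minus strand (RefSeq, GRCm38.p6), are shown for that reason; capitals mark the letters TGTTCT in Cyp4b1, the reverse complement of the androgen and glucocorticoid receptor half-site AGAACA, first base at -248 from the start. Cyp2j11 held no match to any motif searched.
Cyp2j11, chr4:96348681-96348930: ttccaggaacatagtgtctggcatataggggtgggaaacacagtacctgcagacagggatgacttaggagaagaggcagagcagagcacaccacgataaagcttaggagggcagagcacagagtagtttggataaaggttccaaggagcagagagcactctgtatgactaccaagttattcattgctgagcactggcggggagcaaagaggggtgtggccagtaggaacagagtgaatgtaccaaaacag
Cyp4b1, chr4:115647722-115647971: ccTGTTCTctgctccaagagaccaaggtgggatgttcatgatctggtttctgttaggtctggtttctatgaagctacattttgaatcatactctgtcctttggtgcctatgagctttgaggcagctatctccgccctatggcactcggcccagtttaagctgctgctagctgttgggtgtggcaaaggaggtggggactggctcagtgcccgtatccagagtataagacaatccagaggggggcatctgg
The motifs searched were the TATA box TATAAA on the gene's strand and, on both strands, the aryl hydrocarbon receptor core GCGTG, the nuclear receptor half-site AGGTCA, the androgen and glucocorticoid receptor half-site named above, and the palindrome bound by HNF1. AGAACA is in 16.1% of the 32851 promoters of this length and in 10 of the 57 promoters found for 50 of the 70 members. TATAAA is in 7.59% of all promoters and in 13 of the 57, AGGTCA in 14% and in 13, GCGTG in 28.2% and in 13, and the palindrome in 0.00913% and in 0. A match is a run of letters and not a measured site.

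The other Cyp2j genes stood closer to the controls. Cyp2j5, an arachidonic acid epoxygenase of the proximal tubule, ran from 12.53 over 12.61 to 12.72 in the 8-month controls and from 11.85 over 12.48 to 12.58 in the diabetic kidneys. The ranges overlapped, and the difference of -0.24 ± 0.09 was just outside the threshold (adjusted p = 0.0529, limma). Without diabetic array 5, the lowest, it was -0.13 (0.215). Cyp2j6 did not overlap at 8 months, at 7.31 to 7.45 in controls and 6.91 to 7.30 in diabetic kidneys, but its difference of -0.20 was not called (adjusted p = 0.334). The fit takes 1 spread over all groups, and the gene ran from 7.69 to 8.84 in the 2-month diabetic kidneys. A dimmer Cyp2j6 probe set fell by -0.30 (adjusted p = 0.0346). Cyp2j9 stood at -0.32 (adjusted p = 0.2) and Cyp2u1 at 0.01.

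Cyp4f14, which inactivates leukotriene B by hydroxylation, ran from 6.12 over 6.61 to 7.43 in the 8-month controls and from 5.49 over 5.89 to 6.30 in the diabetic kidneys. Only diabetic array 4 exceeded the lowest controls. Control arrays 1 to 3 stood at 6.12, 6.23 and 6.28 and control arrays 4 to 6 at 6.96, 7.43 and 6.93. Dbp parted the same controls, at 10.87, 10.73 and 10.88 against 9.85, 9.6 and 9.48. The fall of Cyp4f14 was -0.77 ± 0.17 (adjusted p = 0.00126, limma), 1.71-fold, after -0.28 and -0.19 at 2 and 4 months. Cyp4f14 kept its 8-month call in all 22 alternatives that tested it, at -0.88 to -0.62 (adjusted p up to 0.0229, limma). Among these was a fit with Dbp minus Arntl, another clock gene, as a covariate. Beyond that, the part of the split among the controls in this fall was not tested. Its relatives Cyp4f13 and Cyp4f16 stood at -0.02 and 0.21 and were not called. Cyp4v3, a hydroxylase of medium-chain fatty acids, moved the other way. At 8 months it ran from 7.75 over 8.04 to 8.09 in controls and from 7.97 over 8.51 to 8.66 in diabetic kidneys, with diabetic arrays 4 and 6 inside the control range. It rose by 0.41 ± 0.11 (adjusted p = 0.00947, limma), and a dimmer probe set of the gene by 0.42 (0.0251). At 4 months its groups did not overlap, with controls at 7.01, 7.03, 6.83 and 6.76 and diabetic arrays from 7.12 over 7.36 to 7.74. The difference of 0.47 ± 0.12 missed the threshold (adjusted p = 0.0567, limma). Of 23 alternatives 5 called it, among them that age fitted by itself. Without control arrays 3 and 4 the difference was 0.36 (0.987).

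Over all 37 members, 6 did not overlap at 4 months, 3 higher (Cyp2c23, Cyp4a12a and Cyp4v3) and 3 lower (Cyp1a1, Cyp2d12 and Cyp2j11), where 4.81% of all genes tested did not, 2.37% higher and 2.44% lower. With 4 controls a group without overlap is easier to reach than with 6. At 8 months 5 did not overlap, Cyp1b1, Cyp2d9 and Cyp4a12a higher and Cyp2j11 and Cyp2j6 lower, beside 9.7% of all genes, 5.41% higher and 4.28% lower. At 2 months Cyp2j11 was the 1 such member, beside 1.5% of all genes, 0.538% higher and 0.961% lower.

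Enzymes known for foreign compounds were the largest group, with 35 members of which 14 were tested. At 8 months 3 rose and 2 fell, beside 9.87% and 6.95% of all genes. Roles were given by subfamily, so Cyp2c23 and Cyp2d9, described below by other substrates, count among the 3. The Cyp2d subfamily split. Cyp2d12 was at 9 over 9.62 to 10.47 in the 8-month controls and at 6.32 over 8.03 to 9.29 in the diabetic kidneys. Diabetic array 3 was lowest, and diabetic array 4 alone reached into the control range. The fall of -1.71 ± 0.31 (adjusted p = 0.000142, limma) was 3.26-fold, and -1.55 (0.000735) without control array 4, the highest control. At 4 months the controls stood at 10.36, 10.61, 9.30 and 9.61 and the diabetic arrays ran from 8.51 over 8.74 to 9.08. The groups did not overlap, the 2 lower controls were again arrays 3 and 4, and the difference of -1.21 ± 0.34 was not called (adjusted p = 0.0756), nor was that of -1.72 with arrays 3 and 4 left out (0.185). Of 23 alternatives 3 called the 4-month difference, among them that age fitted by itself. At 2 months the difference was -0.28 ± 0.31. The step from 2 to 8 months, -1.42 ± 0.44, was itself outside the threshold (adjusted p = 0.0595).

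Cyp2d9, a steroid hydroxylase named for its action on testosterone, went up while Cyp2d12 went down. Its 8-month controls ran from 7.66 over 8.13 to 8.24 and its diabetic arrays from 8.61 over 8.94 to 10.74. The groups did not overlap, and diabetic array 5 stood far above the other 5. The rise was 1.14 ± 0.29 (adjusted p = 0.00453, limma), 2.20-fold, and 0.83 (0.0183) without that array. At 2 and 4 months it stood at 0.27 and 0.50, not called. Cyp2d22 and Cyp2d26 were at -0.05 at 8 months, and both groups of Cyp2d26 covered nearly the same range, 11.22 to 11.79 in controls and 11.04 to 11.82 in diabetic kidneys. Genes of the Cyp2d cluster are alike in sequence, so a probe set may take up more than 1 of them.

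In the Cyp2c subfamily 4 of 11 members were tested. Cyp2c23, an arachidonic acid epoxygenase of the kidney, ran from 6.87 over 7.92 to 8.62 in the 8-month controls and from 7.88 over 8.71 to 8.96 in the diabetic kidneys. The ranges overlapped widely, since the controls were spread over more than 1 log2 unit. The rise was 0.71 ± 0.20 (adjusted p = 0.0117, limma), 1.63-fold, and it was not called when that age was fitted by itself (0.0805). At 4 months the controls stood at 7.18, 7.75, 7.06 and 7.24 and every diabetic array was higher, from 7.79 over 7.98 to 8.18. That difference, 0.68 ± 0.22, was not called (adjusted p = 0.145). Fitted by itself, this age gave a call (0.00971).

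Cyp2c39, a gene best known from liver, was highest on the control array that held liver transcripts. At 8 months 5 controls lay within 5.53 to 5.82 and control array 4 at 7.04, against 5.28 to 5.70 in the diabetic kidneys. The fall of -0.44 ± 0.15 (adjusted p = 0.0417, limma) became -0.21 (0.131) without that array, and the call was also lost without diabetic array 1, 3, 4 or 6 or control array 2, at -0.46 to -0.40 (adjusted p up to 0.0995), and with that age fitted by itself (0.164). Control array 4 was the highest of the 12 arrays for 25 of the 70 members and by at least 1 log2 unit for 13 of them, 3 tested and 10 too dim to be tested. Cyp3a11, a main liver P450, stood at 8.41 there and at 5.04 or below on the other arrays. Without the array Cyp2f2 went from -0.10 to 0.31 and Cyp2a12 from -0.23 to 0.03, and neither was called either way. With the array left out, 12 members (32.4%, beside 14.5% of all genes) were called at 8 months, 7 higher and 5 lower; Cyp2c39, Cyp2s1 and Cyp4a14 were lost.

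**Figure D3:**
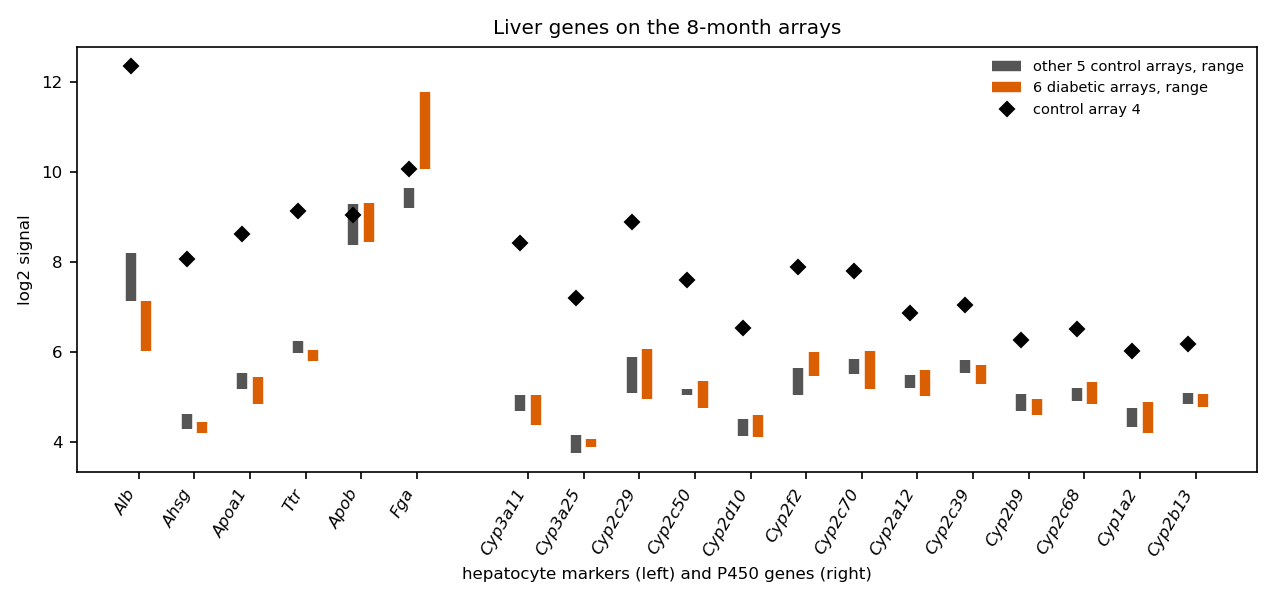
Log2 signal at 8 months of 6 hepatocyte markers (left) and of the 13 P450 genes for which control array 4 was highest by at least 1 log2 unit (right); diamonds are control array 4, grey bars the range of the other 5 controls and orange bars the range of the 6 diabetic arrays. Alb, Ahsg, Apoa1 and Ttr stand far above both ranges on this array, as the P450 genes do, while Apob and Fga do not.

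Cyp2e1, which oxidises ethanol and ketone bodies, was called at no age. It stood at 0.41 ± 0.21, 0.36 ± 0.23 and 0.44 ± 0.21 at 2, 4 and 8 months, with adjusted p of 0.356, 0.615 and 0.157 (limma), and the 4-month value turned to -0.09 when control arrays 3 and 4 were left out. At 8 months the controls ran from 11.07 to 12.08 and the diabetic arrays from 11.30 to 12.37, and the highest control was again array 4, without which the difference was 0.56 (0.0707). Cyp2s1, an enzyme of epithelia, rose by 0.28 ± 0.09 at 8 months (adjusted p = 0.0352, limma), from 8.37 over 8.56 to 8.58 in controls to 8.56 over 8.82 to 8.96 in diabetic kidneys. Here diabetic array 4 alone lay within the control range. The call was lost without any 1 of diabetic arrays 1, 2 and 3 or control arrays 1, 4 and 5 (adjusted p up to 0.095). Cyp1a1, the classic target of the aryl hydrocarbon receptor, was dim and not called, at 0.00, -0.24 and -0.12. Cyp2a12, Cyp2b10, Cyp2c38, Cyp2c54 and Cyp2f2 lay between -0.26 and -0.09 at 8 months and were not called at any age.

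A probe set shared by Cyp2a genes, outside the members because it names several genes, was lower in diabetic kidneys. Its 2-month controls ran from 11.52 over 11.81 to 12.16 and its diabetic arrays from 10.65 over 10.93 to 11.19, a fall of -0.89 ± 0.13 (adjusted p = 8.99e-05, limma on all probe sets). At 8 months the ranges were 11.83 to 12.15 and 10.80 to 11.67, and the fall was -0.73 ± 0.13 (adjusted p = 0.000111). Neither age overlapped. At 4 months the difference of -0.39 was not called (adjusted p = 0.262). The signal cannot be divided among the genes of the cluster.

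Cyp1b1, which oxidises estrogens and polycyclic compounds, was the 1 member whose diabetes effect differed between ages (limma F test, adjusted p = 0.0142; 2.5% of all genes tested passed). At 8 months its controls ran from 8.85 over 9.26 to 9.49 and its diabetic arrays from 9.61 over 10.06 to 10.74. The groups did not overlap, and the rise was 0.85 ± 0.15 (adjusted p = 6.72e-05, limma), 1.81-fold. At 2 and 4 months the ranges lay on top of each other, with differences of 0.07 ± 0.15 and -0.09 ± 0.16. The effect at 8 months exceeded that at 2 months by 0.79 ± 0.21 (adjusted p = 0.0247) and that at 4 months by 0.95 ± 0.22 (0.0199). A dimmer probe set rose by 0.88 at 8 months (adjusted p = 0.00037), and the mean of all its probe sets, 1 of them below the brightness limit, by 0.55.

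The Cyp1b1 promoter is shown because of this late rise; capitals mark CACGC, the reverse complement of the aryl hydrocarbon receptor core GCGTG, first base at -76 from the start on the minus strand of chromosome 17.
Cyp1b1, chr17:79715062-79715311: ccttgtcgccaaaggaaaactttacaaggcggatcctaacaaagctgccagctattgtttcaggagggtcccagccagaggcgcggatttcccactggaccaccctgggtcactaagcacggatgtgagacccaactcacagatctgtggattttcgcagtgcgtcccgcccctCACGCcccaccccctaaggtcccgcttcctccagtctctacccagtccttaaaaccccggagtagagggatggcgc
GCGTG is in 28.2% of all promoters of this length. The gene of the receptor, Ahr, was not called at 8 months (-0.10). A part of the receptor in the rise of Cyp1b1 was not tested.

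Of the sterol, bile acid and vitamin D enzymes 4 of 7 members were tested, and 1 rose and 1 fell at 8 months. Over all genes 9.87% were called higher and 6.95% lower at that age. Cyp27a1, the mitochondrial enzyme that hydroxylates the side chain of cholesterol, ran from 9.12 over 9.35 to 9.44 in the controls and from 9.44 over 9.63 to 10.26 in the diabetic kidneys. The lowest diabetic and the highest control array stood at the same level, and diabetic array 5 stood above the other 5. The rise of Cyp27a1 at 8 months, 0.36 ± 0.11 (adjusted p = 0.0255, limma), was 0.25 without that array (0.108), 0.35 with control array 2 left out (0.0509) and 0.32 with control array 5 left out (0.0635). With the mean of its 2 probe sets, 1 of them below the brightness limit, it was 0.17 (0.0831), and after quantile normalization 0.34 or 0.33 (0.0534 or 0.0624). Cyp46a1, a cholesterol hydroxylase best known from neurons, fell by -0.28 ± 0.08 (adjusted p = 0.0132, limma), from 6.25 over 6.39 to 6.58 in controls to 5.90 over 6.10 to 6.34 in diabetic kidneys. These ranges overlapped. With that age fitted by itself the threshold was missed (adjusted p = 0.0507).

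Cyp7b1, an oxysterol hydroxylase, shows how far the 4-month controls can part. Control arrays 3 and 4 stood at 7.61 and 7.36 and arrays 1 and 2 at 5.46 and 5.05, while the 7 diabetic arrays ran from 5.11 to 5.73. The difference of -0.86 ± 0.36 was not called (adjusted p = 0.334, limma), and it turned to 0.25 when arrays 3 and 4 were left out. At 8 months both groups were spread, 5.46 to 7.54 in controls and 5.68 to 6.85 in diabetic kidneys, at -0.13. The 8-month control arrays 1 to 3 stood at 5.53, 5.46 and 5.53 and arrays 4 to 6 at 6.25, 7.1 and 7.54. Control arrays 3 and 4 of 4 months are also the low controls of Cyp4a12a and Cyp2d12 at that age. In a fit with Dbp minus Arntl, a pair of clock genes, as a covariate the difference of Cyp2d12 at 4 months was called, at -1.63 (adjusted p = 0.00896), and that of Cyp4a12a at 4 months was 1.75 (0.0251).

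Cyp26b1, which breaks down retinoic acid, had the second largest rise of the called members. At 8 months its controls ran from 5.96 over 6.48 to 7.43 and its diabetic arrays from 6.87 over 7.57 to 9.17. The ranges overlapped, and diabetic arrays 5 and 1 were highest. The rise was 1.19 ± 0.32 (adjusted p = 0.00872, limma), 2.28-fold, and 0.91 (0.0378) without array 5. At 4 months 3 controls lay at 6.01 to 6.05 and array 4 at 7.29, with diabetic arrays from 6.48 over 7.02 to 8.13, and the difference of 0.85 ± 0.35 was not called (adjusted p = 0.331). Cyp26a1, the other retinoic acid hydroxylase tested, stood at -0.07 at 8 months.

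The steroid hormone enzymes were near or below the limit of brightness. Cyp17a1 and Cyp21a1 were tested and stood between -0.08 and 0.04 at all ages. Cyp11a1 and Cyp11b1, which open and close the making of adrenal steroids, had mean signals of 4.53 and 4.56 and were too dim to be tested. Adrenal cortex markers, 3 tested, had 0 calls at any age. The log2 of the summed signal of all 5 measured was 7.78 to 8.14 in the 8-month controls and 7.78 to 8.02 in the diabetic kidneys.

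The 33 members below the limit, among them all 5 of Cyp3a, had differences between -0.74 and 0.61 at 8 months with a median of -0.11. With no filter 1 of them, Cyp2j13, was called, at 0.61, with control array 4 as the lowest control. Next to the limit of 5.273 lay Cyp4f15, Cyp8b1 and Cyp2c70 outside, at mean signals of 5.19, 5.2 and 5.25, and Cyp17a1, Cyp2c54 and Cyp2c39 inside, at 5.44, 5.46 and 5.50.

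Of the 15 genes called at 8 months, 12 (80%) had the same sign at all 3 ages, beside 62.8% of the 2187 genes called at that age; Cyp4a14 was one of them and turned at 4 months without control arrays 3 and 4. Among the 9 that rose, 8 were above 0 at both earlier ages, and among the 6 that fell, 4 were below 0 at both. Only Cyp4a12a, Cyp4b1 and Cyp2j11 were called at more than 1 age, 20% of the 15 beside 9.1% of the 2187. At 8 months 4 of the 15 (26.7%, beside 7.45%) changed at least 2-fold, Cyp4a12a, Cyp26b1, Cyp2d9 and Cyp2d12. Whether these shares differ was not tested.

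Genes around the enzymes give the surroundings of these changes. The electron donors, 5 tested with Cyb5a, Cyb5r3 and Fdx1 among them, had 0 calls at each age, and the 7 genes of heme synthesis also had 0. Over all genes 2.54%, 0.969% and 16.8% were called at 2, 4 and 8 months, so 0 calls in such short lists say little. In heme synthesis Alas1, its first enzyme, stood at 0.40 at 8 months (adjusted p = 0.106, limma). Por, the reductase, was not analysed here. Regulators of P450 genes, 16 tested, had 0 calls in the 2-month kidneys and 1 in the 4-month kidneys. In the 8-month kidneys 2 were higher and 4 lower. Nr1i3, the receptor CAR, rose by 0.67 ± 0.12 at 4 months (adjusted p = 0.00436, limma) and by 0.38 ± 0.11 at 8 months (0.019), but not without control arrays 3 and 4 (0.61, 0.215) at 4 months or control array 5 (0.29, 0.069) at 8 months. Cebpb, a factor of the acute phase, rose by 1.09 ± 0.26 at 8 months (0.00292), and Esr1, the estrogen receptor, fell by -0.88 ± 0.12 (4.07e-06), or for Esr1 at 8 months by -0.53 as the mean of its probe sets. Hnf4a fell by -0.20 ± 0.06 (0.0222), a call lost without diabetic array 3 (Hnf4a at 8 months, -0.15, 0.0914), with the mean of its probe sets (-0.26, 0.188) and with probe sets that can match several transcripts left out (-0.20, 0.0966). Nr0b2 and Tef fell by -0.30 and -0.42 (0.0477 and 0.035), calls that leaving out any 1 of several arrays ended. Ppara stood at -0.62 (0.151).

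Eicosanoid enzymes outside the family, 14 tested, had 3 calls at 2 months, 1 of them higher. At 4 months 1 gene was higher, and at 8 months 6 were higher and 3 lower (9.87% and 6.95% of all genes at 8 months). Ephx1, an epoxide hydrolase, rose at every age, by 0.59 ± 0.10, 0.68 ± 0.11 and 0.83 ± 0.10 (adjusted p = 0.000916, 0.00184 and 6.89e-07, limma), and was not called at 4 months without control arrays 3 and 4 (0.53, 0.215). Ephx2, the hydrolase of arachidonic acid epoxides, stood at 0.28, 0.22 and 0.06 and was not called (adjusted p = 0.206, 0.528 and 0.77). Paired on the replicate number as a block, Ephx2 at 2 months was called at 0.28 ± 0.07 (0.0371). Tbxas1, which is itself a P450 by structure and makes thromboxane, fell by -0.63 ± 0.13 at 2 months (0.00398) and by -0.54 ± 0.13 at 8 months (0.00259). The 2-month call of Tbxas1 was lost when that age was fitted by itself (0.0755). Hpgd fell by -0.69 at 2 months (0.00255) and by -0.45 at 8 months (0.0168). Both calls of Hpgd were lost with probe sets that can match several transcripts left out. Ptges, a prostaglandin E synthase, and Alox5ap, which presents arachidonic acid to lipoxygenase in leukocytes, rose by 0.52 ± 0.12 and 0.90 ± 0.15 at 8 months (0.00157 and 5.48e-05).

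Targets of PPAR-alpha outside the family, 14 tested, had 0 calls at 2 and 4 months. At 8 months 3 were higher and 1 lower, beside 9.87% and 6.95% of all genes. Over the alternatives run 1 to 5 were higher at 8 months and 0 to 2 at 2 months. Acot1 at 8 months (0.77) and Pex11a at 8 months (0.45) lost their calls without any 1 of several arrays and were lowest without diabetic array 5, at 0.61 (adjusted p = 0.104, limma) and 0.37 (0.107). Angptl4, an inhibitor of lipoprotein lipase, led at 2.05 ± 0.53 (adjusted p = 0.00618, limma), and the mean of its probe sets gave Angptl4 at 8 months as 1.11. Acadm fell at 8 months by -0.28 ± 0.09 (adjusted p = 0.0243, limma), a call lost in 5 of 23 alternatives (adjusted p up to 0.082). Of the androgen-responsive kidney genes, 4 tested, Kap fell at 8 months by -1.49 ± 0.40 (0.00879) and the others were not called. A link between these genes and the P450 genes was not tested.

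**Figure D4:**
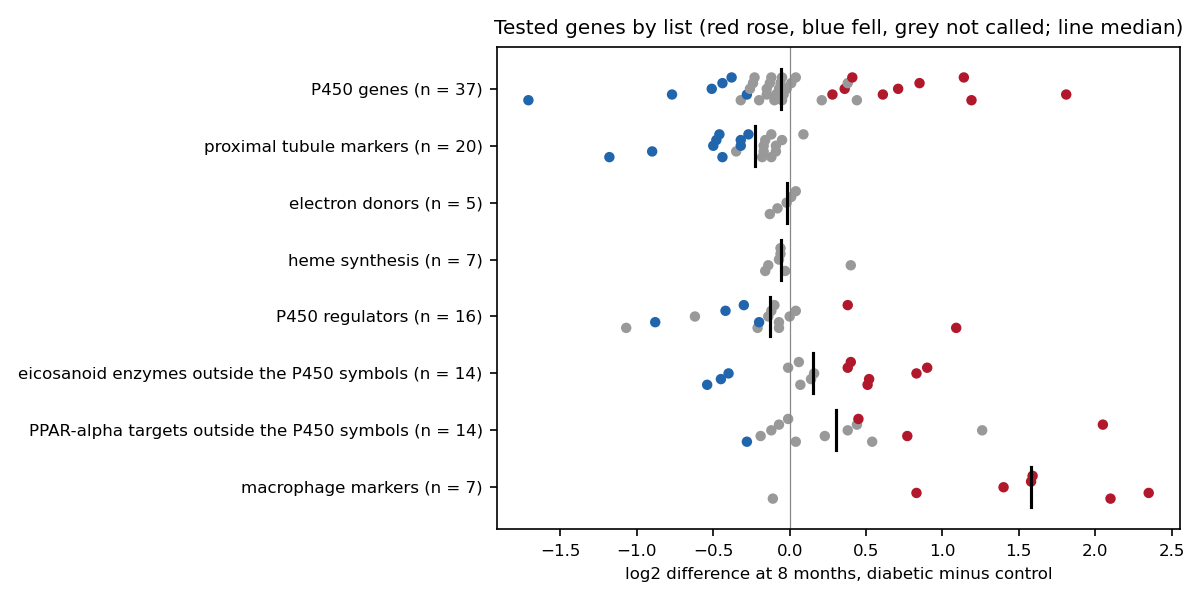
Log2 difference at 8 months (diabetic minus control) of each tested gene of the P450 family and of 7 lists; red points rose, blue fell, grey were not called, and the black line is the median. The P450 genes spread from -1.71 to 1.81 around a median of -0.06, 19 of the 20 proximal tubule markers lie below 0, and 6 of the 7 macrophage markers were called higher.

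In whole kidney, fewer cells of a type and less RNA per cell cannot be told apart. Of 20 proximal tubule markers, 0 rose and 9 fell at 8 months (9.87% and 6.95% of all genes), with a median of -0.23. The log2 of their summed signal was 16.96 to 17.01 in controls and 16.45 to 16.91 in diabetic kidneys. At 2 months 1 fell and at 4 months 0. Of the macrophage markers tested, 6 of 7 rose at 8 months with a median of 1.58. The log2 of the summed signal of all 8 measured was 11.65 to 11.93 in controls and 11.80 to 13.22 in diabetic kidneys. Likewise 4 of 4 lymphocyte and 5 of 7 fibroblast markers rose (2 to 5 over the alternatives run), while 0 of 8 endothelial markers were called. On the same scale the sums were 8.97 to 9.19 against 9.23 to 10.91 for lymphocytes and 11.02 to 11.97 against 11.95 to 13.95 for fibroblasts. Each was taken over 7 measured markers. Of 3 adipose markers tested, Ucp1 fell at 4 months by -2.28 and at 8 months by -2.20, Cidea fell at 8 months by -2.22, and Adipoq stood at 0.85 there; over the alternatives run 0 to 2 of the 3 fell at 8 months and 0 to 1 at 4 months. The log2 of the summed signal of the 5 adipose markers measured was 7.04 to 10.49 in the 8-month controls and 8.70 to 9.76 in the diabetic kidneys. The part of these cell types in the rises and falls of the P450 genes was not tested.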

How the data were processed

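Total RNA of whole kidney was extracted with Trizol and 5 ug of it was labelled as biotinylated cRNA for Affymetrix arrays, per the labels' protocols. The values are log2 signals per probe set as the authors deposited them; for background correction, summarization and normalization the method is not given in the sources used here. Array means differ between ages, so levels were compared within an age only. The number of arrays limits the precision.

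Of 45101 probe sets, 34945 name 1 gene and 932 several on the platform's annotation, and the brightest of the former stood for each of 18193 genes. Genes whose mean lay under the 40th percentile of the probe set means (5.273) were left out, which kept 13004. Group means of all 35 arrays were fitted with limma 3.58.1 (lmFit and eBayes, 29 residual degrees of freedom, R 4.3.3), p-values were adjusted by Benjamini-Hochberg over the 13004 genes, and an adjusted p under 0.05 was a call. The effect at different ages was compared by an F test in the same fit. Shared probe sets and second probe sets were adjusted over all probe sets above the limit. The fit was tested on simulated data.

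Same-numbered arrays deviated together at 2 months (r of 0.246 to 0.444 over 6 pairs). They did not at 4 months (0.0484 to 0.177) or 8 months (-0.142 to 0.233). The main fit took no pairs at any age. An alternative fit took the replicate number within each age as a block. Named genes were each member called at any age, each whose effect differed between ages, a fixed list of members, called genes of the pathway lists, and Por and Ephx2; other members and list genes named with values, such as Cyp2j6, Cyp2j13, Ahr, Alas1 and Ppara, were chosen after their values were seen. The members, lists and tests were chosen with earlier results of these data known. No gene was analysed singly here under the symbols Cyp2c44, Cyp4a10 or Por. Cyp4a10 is named with Cyp4a31 on the shared Cyp4a probe set. Promoters were taken from RefSeq on GRCm38.p6. The alternatives were other filters, probe set rules, normalizations, moderation, array weights, single ages, a clock covariate, a replicate block and each array left out.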

Additional observations from a re-analysis of the deposited data

Results flagged for a closer look

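Of 120 groups of 4 to 7 arrays examined for the named genes, 12 held an array far from the rest of its group. Chance alone gives about 1 in 20 for independent groups, but these genes share the same arrays. An excess over chance was therefore not tested. Control array 6 of 2 months, the one with the high actin ratio, stood apart for Cyp1a1 (6.05), Cyp2c39 (6.48), Cyp2d26 (10.99), Cyp2j5 (12.76) and Cyp4a14 (12.12). Diabetic array 5 of 8 months stood apart for Cyp27a1 (10.26), Cyp2d9 (10.74) and Cyp2j5 (11.85), and control array 4 of 8 months for Cyp2c39 (7.04). The others were Cyp1a1 on diabetic array 2 of 4 months (4.52), Cyp26b1 on control array 4 of 4 months (7.29) and Cyp4a12a on diabetic array 1 of 2 months (10.10).

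The effect of diabetes on Cyp1b1 differed between ages (limma F test, adjusted p = 0.0142). Probe sets that several genes share, and that no comparison of single genes used, differed between diabetic and control kidneys. The Cyp2a probe set stood at -0.89 at 2 months and -0.73 at 8 months, and the Cyp4a probe set at 0.49 at 8 months.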

How the results depend on the processing

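The 15 members called at 8 months stayed within 12 and 16 when single arrays were left out, and every other alternative run gave a count within 1.5 times of 15. At 2 months the count of 2 became 1 in a fit of that age alone and 1 without arrays 5 and 6 of both groups, and ran from 1 to 3 over arrays left out. At 4 months the count of 1 became 2 with quantile normalization over all arrays or within each age, 4 in a fit of that age alone, 5 with array weights, 2 with the clock covariate and 0 without control arrays 3 and 4, and ran from 0 to 2 over arrays left out. Members whose effect differed between ages numbered 1, then 3 with array weights, 2 with the clock covariate, and 1 to 2 over arrays left out. With the replicate number as a replicate block the counts were 3, 1 and 15 at 2, 4 and 8 months, and 1 for the difference between ages. The cause of these shifts was not tested. Of 412 checks of the 18 called results of single members, 372 kept the call, 40 lost it and 0 changed sign. Cyp1b1 kept its call at 8 months but fell to 0.55 with the mean of its probe sets. Dim signal limits what can be said of the 33 members below the limit. With a filter at the 60th percentile 21 members were tested and 12 (57.1%) were called at 8 months, beside 17.1% of all genes under that filter.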
